A study of Solanum lycopersicum with 32 samples.

Results

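The regions described here carried a peak of histone H3 lysine 9 acetylation (H3K9ac) before heat and after 6 h of heat, and had none after 1 h. They were found by joining every deposited H3K9ac peak of the 6 H3K9ac libraries on chr1 to chr12 wherever peaks overlapped or touched. A region was taken where it was at least 150 bp long, overlapped a peak in both 0 h libraries and both 6 h libraries, and overlapped none in either 1 h library. Of 85420 H3K9ac regions of that length, 4316 met the rule (5.05%), and together they span 4.58 Mb. The regions were thus chosen by their H3K9ac peaks, so all H3K9ac values below are a description and carry no test. H3K4me3, H3K18ac, H3K27ac and RNA polymerase II (RNAPII) took no part in the choice.

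The samples were leaves of wild-type tomato (*Solanum lycopersicum*) cv. M82, taken from the fourth branch of 4-week-old plants that had grown in pots at 24 °C with 16 h of light. Plants were placed in a climatic chamber at 45 °C for 0, 1 or 6 h, and the 0 h plants are the unheated group. Chromatin immunoprecipitation and sequencing (ChIP-seq) was done for 5 targets with 2 libraries per target and time, and each library stands for a pool of seedlings. No unheated leaves were sampled at 1 h or 6 h, so the length of heat and the time of day cannot be told apart, and the only input control is labelled 0 h, so a change of the background with heat cannot be told apart from a change of a target.

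Acetylation of lysines on histone H3 loosens the hold of the histone tail on DNA and is read by proteins that help transcription. H3K9ac, H3K18ac and H3K27ac are marks of active chromatin, and in plants they lie mainly at the start of transcribed genes. The study that reported these data also found them beside accessible sites away from genes. There H3K9ac and H3K18ac were high, H3K27ac was moderate and H3K4me3 was low. H3K4me3 marks the first nucleosomes of transcribed genes, and RNAPII is the enzyme that makes messenger RNA. Acetylation is put on by acetyltransferases and taken off by deacetylases, so a region can lose and regain a mark without a change in the DNA.

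The 30 peak lists hold 2437381 peaks, from 40601 to 126476 per library. Depth is given as the lowest local background of each library, in fragments per position, and it ranged from 3.71 to 13.96 fragments. The 2 libraries of a target and time differed by less than sampling noise in all 15 pairs, with a mean chi-square per matched peak of 0.295 to 0.705, against 1.04 to 10.7 over 60 pairs of different times. Such a pair was counted as 1 sample, and both libraries are given side by side, replicate 1 first. No SD between plants can be given.

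H3K9ac libraries differed in depth in the direction of the rule. The 2 libraries at 1 h held 59239 and 57164 peaks, against 78269 and 71783 at 0 h and 75492 and 73758 at 6 h. Their background was 4.47 and 5.53 fragments, against 7.40 and 7.38 at 0 h and 5.15 and 6.49 at 6 h. The 1 h libraries were thus the shallowest as a pair, while the second 1 h library was deeper than the first 6 h library. When all 6 H3K9ac lists were held to the same number of peaks, 57061, the rule found 1977 regions. The part of depth in the missing peaks was not tested further.

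H3K9ac at these regions was weak when it was present. Fold here is the authors' fold enrichment of a peak, its pileup over the local background. The median fold was 2.57 and 2.45 in the 0 h libraries and 2.37 and 2.28 in the 6 h libraries. Regions with an H3K9ac peak in all 6 libraries, called kept regions from here on, numbered 28378 and had medians of 8.12 and 8.27 at 0 h, 9.49 and 9.51 at 1 h, then 9.02 and 8.93 at 6 h. Another 5199 regions had a peak in both 0 h libraries and in no heated one, and their medians at 0 h were 2.15 and 2.09. The regions missing only at 1 h thus lay just above the 0 h-only regions and far below the kept ones. Fewer cells with the mark and less of it per cell cannot be told apart in such leaf samples. The median peak of the regions missing only at 1 h rested on 29 and 28 fragments at 0 h and on 19 and 23 at 6 h.

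**Figure D1:**
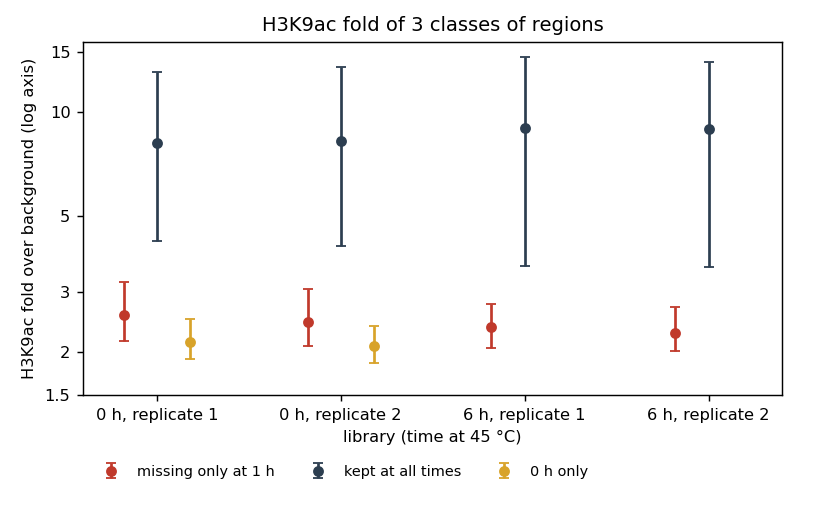
H3K9ac fold over background (log axis) in the 2 libraries at 0 h and the 2 at 6 h, for the 4316 regions missing only at 1 h, the 28378 kept regions and the 5199 0 h-only regions, which have no value at 6 h. Points are medians over regions and bars run from the 25th to the 75th percentile, and the regions missing only at 1 h sit between 2.28 and 2.57, below the kept regions in each library.

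The lowest of a region's 4 folds at 0 h and 6 h served as its strength. It ran from 1.37 to 11.55 with a median of 2.00, and its 5th and 95th percentiles were 1.57 and 3.00. Only 218 regions exceeded 3 in all 4 libraries and 28 exceeded 5. For comparison, the 5th percentile of fold over all peaks of the 1 h lists was 1.82 and 1.76, and 3123 of the 4316 regions (72.4%) were above both of these in all 4 libraries where they had a peak. Of the kept regions, 97.2% were above both.

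The edge of the rule was soft on one side. A further 2640 regions had a peak in 1 of the 2 libraries at 1 h and in all 4 others, and their median strength was 2.13, close to the 2.00 of the regions with no 1 h peak. The minimum length of 150 bp could not remove a region of this pattern. Each such region overlaps a peak of both 0 h libraries, whose shortest peaks were 172 and 184 bp. The regions were 223 to 5729 bp long with a median of 902 bp, against 1744 bp for kept and 455 bp for 0 h-only regions.

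The H3K9ac fold at 6 h was below its 0 h value in many of these regions. Both 6 h folds were below both 0 h folds in 1601 regions (37.1%) and above them in 751 (17.4%). In kept regions the order was the other way, with 30.5% below and 36.8% above. The 6 h libraries were shallower, with backgrounds of 5.15 and 6.49 fragments against 7.40 and 7.38 at 0 h. The part of depth in these fold differences was not tested. The covered length was also smaller at 6 h. H3K9ac peaks covered 75.5% and 70.0% of the regions' length at 0 h and 50.9% and 55.5% at 6 h. A fall in covered length was not particular to these regions. In kept regions it went from 80.96% and 78.3% to 66.7% and 69.5%. Over all H3K9ac regions it went from 60.2% and 50.3% to 38.5% and 40.1%. The median H3K9ac peak of a whole list was also shorter, with 579 and 609 bp at 0 h and 440 and 490 bp at 6 h.

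Peaks of both other acetyl marks stayed at most of these regions. At 1 h, 95.8% and 95.5% of the 4316 regions still overlapped an H3K18ac peak and 93.4% and 90.4% an H3K27ac peak. Over all H3K9ac regions these shares were 93.7% and 93.2% for H3K18ac, which is near, and 77.8% and 73.5% for H3K27ac. H3K18ac and H3K27ac were present together in both of their 1 h libraries at 3627 regions (84.0%), against 75.1% at 0 h and 86.2% at 6 h, and against 67.2% of all H3K9ac regions at 1 h. RNAPII was there as well at 2121 regions (49.1%), which is near the 49.8% of all H3K9ac regions. At 1 h, 10 regions (0.232%, against 1.42%) had no peak of any of the 4 other targets. Most regions without an H3K9ac peak at 1 h were thus still listed for both other acetyl marks.

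H3K4me3, the mark of gene starts, overlapped 31.5% and 36.1% of the regions at 0 h, 26.2% and 29.96% at 1 h, then 28.8% and 33.3% at 6 h. In kept regions the shares were 76.6% and 77.6%, then 78.2% and 79.0%, then 74.9% and 75.8%. Over all H3K9ac regions they were 36.3% and 38.8%, 35.5% and 37.5%, then 35.4% and 37.8%, so the regions missing only at 1 h were near this background before heat. Within each replicate number their share with H3K4me3 was lowest at 1 h, where that of the kept regions was highest. Replicate 2 of H3K4me3 was deeper than replicate 1 at every time and gave the higher share each time.

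H3K18ac overlapped 98.8% and 98.7% of the regions at 0 h, 95.8% and 95.5% at 1 h, then 97.8% and 97.7% at 6 h. Kept regions moved the other way, with 97.7% and 97.2%, 99.6% and 99.5%, and 97.0% and 96.6%. Over all H3K9ac regions the shares were 92.6% and 91.9%, 93.7% and 93.2%, then 87.9% and 86.9%. The 0 h-only regions ended lower, where 93.2% and 92.7% had it at 0 h but 83.6% and 82.4% at 6 h. H3K18ac at 6 h thus lay over nearly all regions where H3K9ac was listed again, and over fewer of those where it was not.

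H3K27ac overlapped 82.3% and 79.0% of the regions at 0 h, 93.4% and 90.4% at 1 h, then 93.9% and 88.1% at 6 h. Its share was higher at both heated times than before heat. The same held in kept regions, with 91.4% and 90.1%, 97.8% and 96.7%, and 96.8% and 94.7%, and in the 0 h-only regions. It also held over all H3K9ac regions, with 65.5% and 62.9%, 77.8% and 73.5%, then 75.9% and 69.9%. The number of H3K27ac peaks was also higher at 1 h, with 126476 and 117735 against 111858 and 107438 at 0 h.

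RNAPII overlapped 62.7% and 62.4% of the regions at 0 h, 62.3% and 62.0% at 1 h, then 55.4% and 53.8% at 6 h. In kept regions the shares were 93.0% and 92.5%, 97.4% and 97.4%, and 92.8% and 92.3%. The 0 h-only regions, which had the same RNAPII share at 0 h (63.5% and 62.7%), had 71.3% and 70.9% at 1 h and 54.1% and 52.1% at 6 h. Over all H3K9ac regions the shares were 61.4% and 60.8%, 70.6% and 70.6%, then 59.0% and 57.9%. The share of RNAPII was thus level from 0 h to 1 h where H3K9ac was missing at 1 h only, and was higher at 1 h in both other classes.

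**Figure D2:**
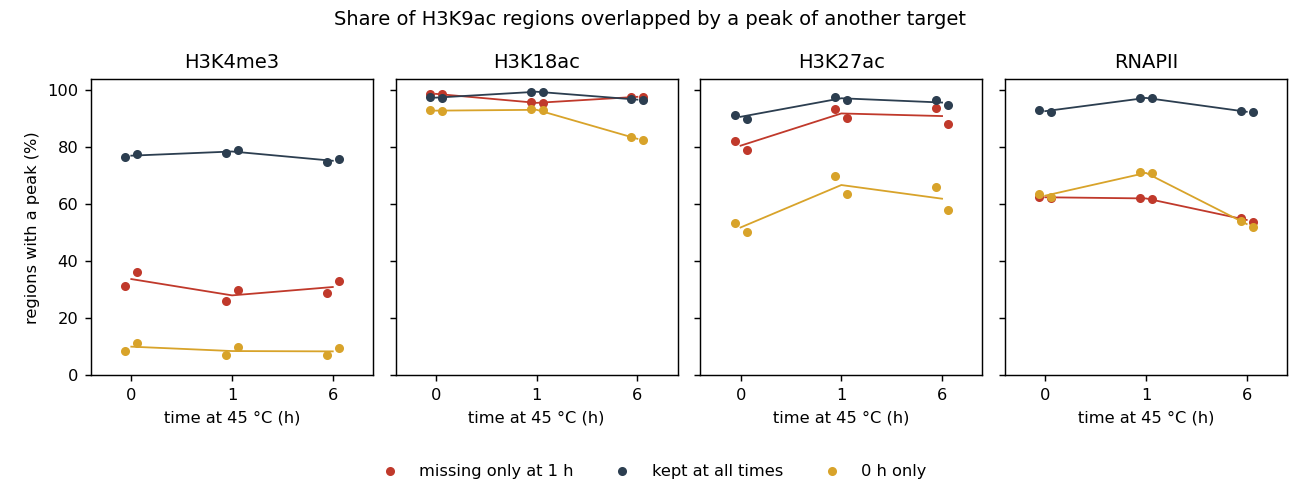
Percent of regions overlapped by a peak of H3K4me3, H3K18ac, H3K27ac or RNAPII (y axis) at 0, 1 and 6 h at 45 °C (x axis), for the regions missing only at 1 h, the kept regions and the 0 h-only regions. Each point is 1 library and lines join the means of the 2 libraries, and for H3K4me3 the regions missing only at 1 h stand at 31.5% and 36.1% before heat and 26.2% and 29.96% at 1 h.

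Whether the other targets departed at 1 h was asked by taking the share of regions with a peak at 1 h minus the mean of 0 h and 6 h, and subtracting the same quantity in kept regions. This departure was -6.69 percentage points for H3K4me3, -5.05 for H3K18ac, +2.11 for H3K27ac and -1.18 for RNAPII. An exact permutation test of the times over the 4 targets together used the sum of the absolute departures, one-sided for large sums. It asks for the size of the departures whatever their sign. The times were permuted in each target on its own. The test thus takes the 4 targets as independent, although they share the heat times, the regions and the input. With each pair of libraries as 1 sample, this exact permutation test gave p = 0.580, where the smallest p that its 81 arrangements allow is 0.0123. With the libraries taken singly, as the study's labels name them independent biological replicates, the same exact permutation test gave p = 0.0486, so this call depends on joining the pairs. A single target has 3 arrangements and cannot go below 0.333, the value found for H3K4me3 and for H3K18ac. The widest 95% Wilson interval of a share was 1.49 points to either side, and it covers counting error only.

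The direction of these departures was not equally firm. H3K4me3 and H3K18ac lay below the kept regions under each alternative tried. With kept regions of like H3K9ac strength (7227 regions between the 5th and 95th percentile of the regions described here, chosen after seeing the data), the departures were -10.2, -9.00, -6.60 and -7.64 points for H3K4me3, H3K18ac, H3K27ac and RNAPII, and the exact permutation test gave p = 0.0370. No direction is therefore given for H3K27ac, whose value turned from positive to negative, nor for RNAPII, which was +2.2 and +2.62 points without replicate 1 and without replicate 2 and -22.4 points when 50% of a region had to be covered. The size of the H3K18ac departure varied as well, from -22.8 points at 50% coverage to -3.07 without replicate 2. The kept regions of like strength were matched at 0 h and 6 h only and have H3K9ac peaks at 1 h by definition. The 2 sets thus differ in H3K9ac at 1 h by choice, so the p of that exact permutation test is given without a call.

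The change from 0 h to 6 h was compared with that of the 0 h-only regions. It differed by -1.14 points for H3K4me3, +8.86 for H3K18ac, +0.303 for H3K27ac and +2.03 for RNAPII. An exact sign-flip permutation test over the 4 targets gave p = 0.375, and the smallest p it allows is 0.125, so this design could not reach 0.05. This test also takes the 4 targets as independent. The H3K18ac value was positive under every alternative, between 6.77 and 11.3 points.

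A complete loss of another target at 1 h alone was rare. RNAPII was missing only at 1 h, that is present in both 0 h and both 6 h libraries and in neither 1 h library, at 116 of the 4316 regions (2.69%), against 0.877% of all H3K9ac regions. H3K18ac had this pattern at 91 (2.11%, against 1.81%), H3K4me3 at 66 (1.53%, against 0.85%) and H3K27ac at 5 (0.116%, against 0.0866%). At 4058 regions no other target had it, at 238 it was 1 target (5.51%, against 2.90% of all H3K9ac regions), at 20 it was 2 (0.463%, against 0.349%), and at none 3 or 4. The opposite pattern, RNAPII only at 1 h, was found at 163 regions (3.78%, against 5.68% of all H3K9ac regions). RNAPII was present only at 0 h at 82 regions (1.9%, against 0.735%) and was missing only at 6 h at 98 (2.27%, against 1.66%).

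H3K18ac had a peak in all 6 libraries at 3981 regions (92.2%, against 79.8% of all H3K9ac regions), H3K27ac at 3191 (73.9%, against 57.0%) and RNAPII at 1773 (41.1%, against 49.6%). RNAPII had no peak in any library at 914 regions (21.2%, against 21.7%). H3K4me3 had one in all 6 at 948 regions (22.0%, against 31.4%) and in none at 2563 (59.4%, against 57.0%). H3K27ac was present at both heated times and absent at 0 h at 145 regions (3.36%, against 2.73%).

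The height of the peaks that stayed was then compared, as the highest fold among peaks with their summit inside a region. The median H3K18ac fold over the regions missing only at 1 h was 4.65 and 4.51 at 0 h, 3.45 and 3.50 at 1 h, then 3.94 and 4.13 at 6 h. In kept regions it was 4.67 and 4.65, 5.77 and 5.92, and 3.83 and 4.03. H3K18ac was thus as high in both classes at 0 h and at 6 h, with ratios of 0.996 and 0.971 and of 1.03 and 1.02, and lower at 1 h, with ratios of 0.598 and 0.591. The 2 libraries at 1 h did not overlap the other 4 in this ratio. The H3K18ac libraries at 1 h were not shallow, with backgrounds of 11.8 and 8.61 fragments against 7.54 and 7.03 at 0 h and 13.96 and 8.33 at 6 h.

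The ratio of the median RNAPII fold was 0.622 and 0.603 at 0 h, 0.436 and 0.445 at 1 h, then 0.592 and 0.593 at 6 h. It was again lowest at 1 h, where the 2 libraries did not overlap the other 4. Against 0 h-only regions the RNAPII ratio stayed near 1, with 0.991 and 1.02, 0.965 and 0.987, then 1.04 and 1.00. The lower RNAPII ratio at 1 h was thus mainly seen against kept regions. The RNAPII medians themselves were 3.22 and 3.18, 2.81 and 2.88, and 3.45 and 3.47. For H3K4me3 the ratio was 0.193 and 0.226, 0.163 and 0.181, and 0.208 and 0.243, so peaks of this mark were low at all times and lowest at 1 h. H3K27ac had no return in this ratio, with 0.604 and 0.591 at 0 h, 0.442 and 0.429 at 1 h, then 0.485 and 0.441 at 6 h. No test was made of these ratios, since each target has 1 sample per time once the pairs are joined.

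**Figure D3:**
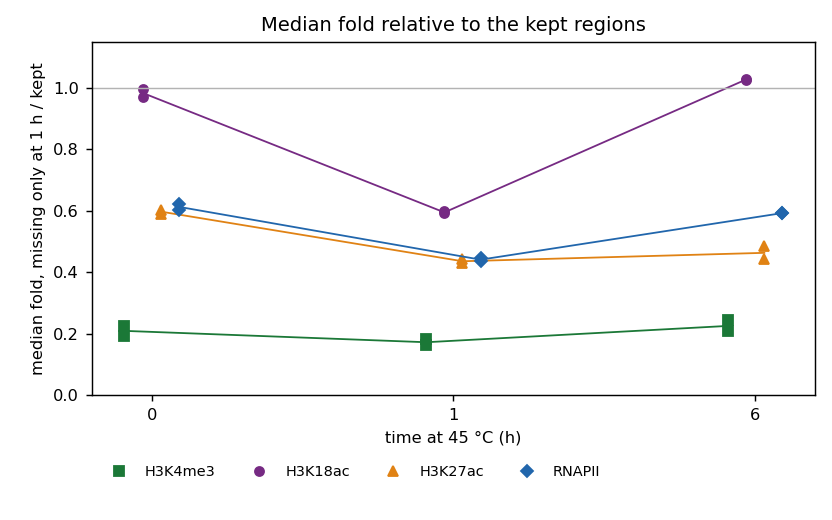
Median fold over the regions missing only at 1 h divided by the median fold over kept regions (y axis, starting at 0) at 0, 1 and 6 h at 45 °C (x axis), with 1 point per library and lines through the means of 2 libraries. H3K18ac goes from 0.996 and 0.971 at 0 h to 0.598 and 0.591 at 1 h and 1.03 and 1.02 at 6 h.

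Region by region, H3K18ac had a summit in all 6 libraries at 1260 of the 4316 regions, and the others have no such comparison. Both 1 h folds were below the other 4 in 622 of these (49.4%), against 11.3% of all H3K9ac regions with 6 summits, and above them in 81 (6.43%, against 48.6%). In kept regions 5.70% were lower and 57.1% higher. The median log2 ratio of 1 h to the mean of 0 h and 6 h was -0.33 in the regions missing only at 1 h and 0.47 in kept regions. It was -0.30, -0.25, -0.34 and -0.38 when the 4316 regions were cut into 4 groups of equal size, ordered from weakest to strongest H3K9ac. Regions with 6 summits numbered 270, 247, 300 and 443 in these groups. The order uses the H3K9ac values that chose the regions, and the difference between the groups was not tested.

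H3K4me3 had a summit in all 6 libraries at 653 regions, and both 1 h folds were the lowest in 357 (54.7%, against 14.3%) and the highest in 11 (1.68%, against 8.67%). Its median log2 ratio was -0.47, against 0.041 in kept regions. The background of the H3K4me3 libraries at 1 h, 4.67 and 6.32 fragments, lay within the range of the other 4 (3.71 to 6.89).

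RNAPII had a summit in all 6 libraries at 565 regions, and both 1 h folds were the lowest in 224 (39.6%, against 19.0%) and the highest in 85 (15.04%, against 39.2%). Its median log2 ratio was -0.24, against 0.22 in kept regions. H3K27ac had 6 summits at 2127 regions, with the 1 h folds lowest in 155 (7.29%, against 2.57%) and highest in 199 (9.36%, against 18.6%). Its median log2 ratio of 0.030 was close to 0, against 0.30 in kept regions. For all 4 targets, kept regions of like H3K9ac strength had smaller shares of regions lowest at 1 h, with 8.37% for H3K18ac, 24.7% for H3K4me3, 10.0% for RNAPII and 1.56% for H3K27ac. In 0 h-only regions these shares were 30.3% of 505 for H3K18ac and 29.1% of 55 for H3K4me3. They were 36.4% of 269 for RNAPII and 5.06% of 712 for H3K27ac, near the shares of the regions missing only at 1 h.

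These counts depend on which peak stands for a region. With the highest peak that overlaps a region in place of one with its summit inside, chosen after seeing the data, H3K18ac was lowest at 1 h in 35.6% of 3981 regions and H3K4me3 in 51.6% of 948, both still above all H3K9ac regions (18.01% and 17.1%). RNAPII was lowest in 29.4% and highest in 24.6% of 1773 regions under that choice, and its median log2 ratio was -0.042, against 14.1%, 49.4% and 0.34 over all H3K9ac regions. In 0 h-only regions the same choice gave RNAPII lowest in 21.8% and highest in 38.3% of 2188. RNAPII at the regions missing only at 1 h was therefore not higher at 1 h by either choice, and how far it was lower varied between them.

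**Figure D4:**
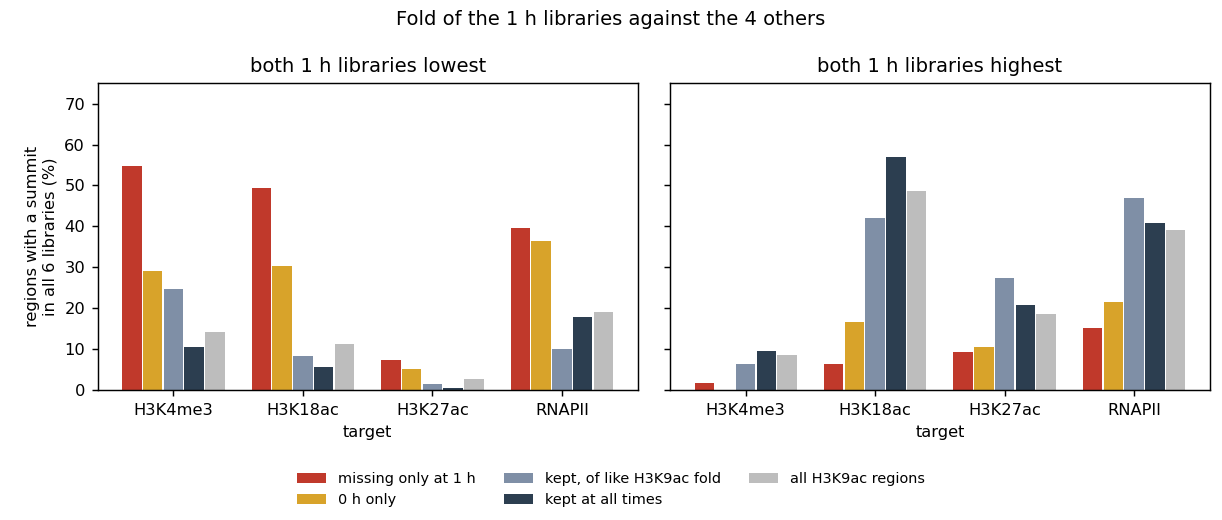
Percent of regions with a summit in all 6 libraries of a target (y axis) in which both 1 h folds were the lowest (left) or the highest (right) of the 6, by target and class of region; the bars named kept, of like H3K9ac fold are kept regions in the strength range of the regions missing only at 1 h. H3K18ac was lowest at 1 h in 49.4% of the regions missing only at 1 h and in 5.70% of kept regions, and the H3K4me3 bars of 0 h-only regions rest on 55 regions.

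Regions with H3K4me3 before heat and regions without it differed in the other marks. H3K4me3 lay in both 0 h libraries at 1319 regions (30.6%), which had a median length of 1009 bp, and in neither at 2716 (62.9%), with a median length of 854 bp. With H3K4me3, nearly all regions had H3K27ac at every time, from 98.3% to 99.8% per library. Without it, H3K27ac lay over 72.6% and 67.7% at 0 h, 89.8% and 85.2% at 1 h, then 90.5% and 81.6% at 6 h. Kept regions were split in the same way, with 99.2% to 99.9% per library with H3K4me3 and 63.7% and 59.0%, 90.7% and 85.4%, then 86.0% and 77.1% without. With H3K4me3 the share was near its ceiling before heat.

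H3K18ac peaks were lower at 1 h in both of these groups. The median log2 ratio was -0.50 over 425 regions with H3K4me3 and -0.20 over 742 without, and both 1 h folds were the lowest in 67.8% and 37.6%. The share overlapped by H3K18ac at 1 h was 92.1% and 90.9% with H3K4me3 and 97.5% and 97.6% without. In kept regions the medians were 0.49 and 0.38. RNAPII overlapped 58.8% and 57.9% of the regions with H3K4me3 at 0 h and 64.2% and 64.0% of those without, so H3K4me3 did not go with a higher RNAPII share here. The difference between the groups was not tested.

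The strongest region was chr10:27104304-27108736 (coordinates count from 1, M82 assembly version 1.0), 4433 bp long, with H3K9ac folds of 24.0 and 24.3 at 0 h and 14.2 and 11.55 at 6 h. Its nearest H3K9ac peak at 1 h lay 88223 bp away. RNAPII there had folds of 15.4 and 18.9 at 0 h, 2.81 and 3.63 at 1 h, then 9.02 and 8.71 at 6 h. H3K18ac had 7.59 and 7.49, 2.24 and 3.20, and 4.08 and 5.36, while H3K27ac had 3.43 and 2.86, 3.39 and 3.74, and 5.80 and 6.64. RNAPII, H3K18ac and H3K4me3 were all lowest at 1 h in this region and H3K27ac was not.

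A pair of strong regions lay near each other on chr11. At chr11:9581128-9582668, H3K9ac had folds of 11.4 and 11.8 at 0 h and 7.48 and 7.21 at 6 h, and RNAPII had 13.98 and 14.8, 2.16 and 2.74, and 16.75 and 18.15. At chr11:9615945-9617934, H3K9ac had 7.06 and 10.38 at 0 h and 8.47 and 9.22 at 6 h, and RNAPII had 15.85 and 15.02 at 0 h, 2.38 and no summit at 1 h, and 23.8 and 27.1 at 6 h. H3K4me3 had no peak at 1 h in either region and was present at 0 h and 6 h in both. RNAPII at 6 h was above its 0 h level in both.

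The others of the 8 strongest were chr10:52949073-52950385, chr9:68431894-68432671, chr7:64438782-64441172, chr7:48002965-48004983 and chr11:10750161-10752502, with strengths of 7.78, 7.53, 7.00, 6.93 and 6.70. The region on chr9 differed from the rest, with H3K4me3 folds of 10.9 to 15.2 in all 6 libraries and an H3K18ac peak in 1 library only, at 6 h. At chr7:64438782-64441172 H3K18ac was not lower at 1 h, with 6.93 and 7.49 at 0 h, 6.04 and 7.85 at 1 h, then 6.96 and 6.87 at 6 h. At chr11:10750161-10752502 RNAPII had 6.39 and 6.23, 3.39 and 3.83, and 7.00 and 6.38.

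**Figure D5:**
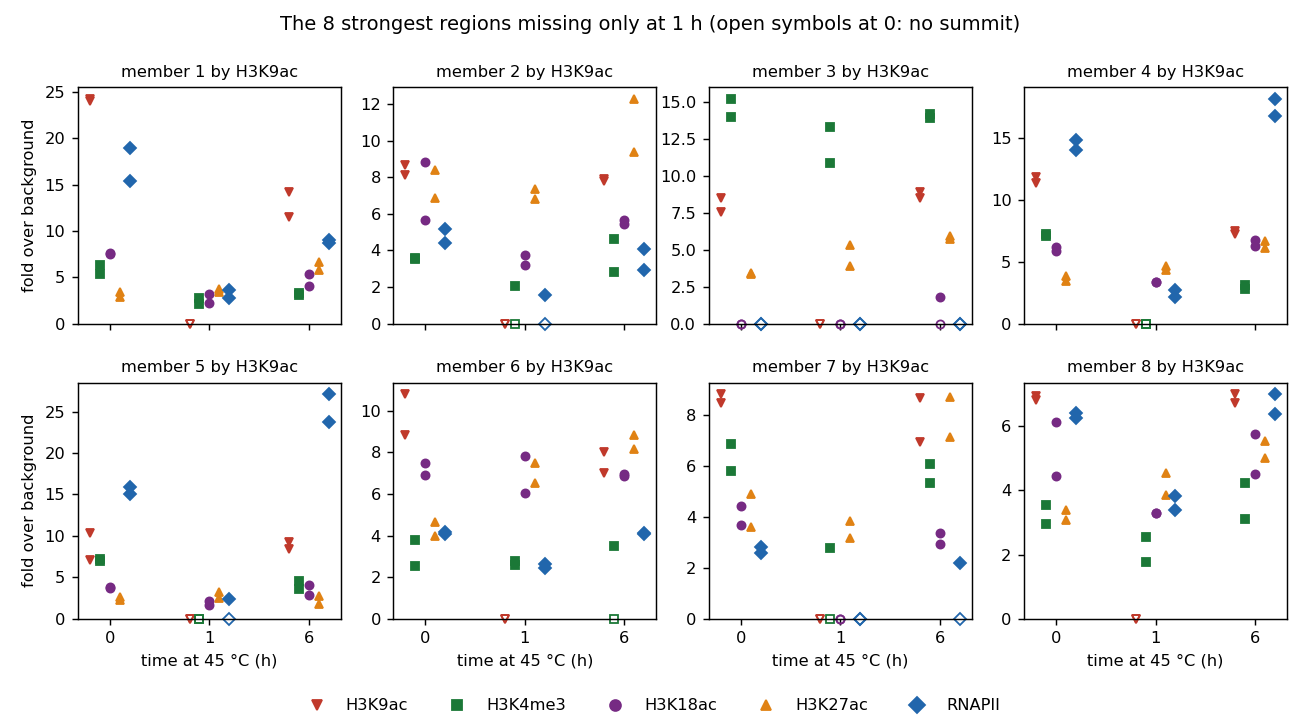
Fold over background (y axes, each from 0) of the 5 targets at 0, 1 and 6 h at 45 °C (x axes) in the 8 regions with the highest H3K9ac strength, in the order given by the lowest H3K9ac fold over 0 h and 6 h. Each symbol is 1 library, and an open symbol at 0 means that no peak of that library had its summit in the region; in the first region RNAPII stands at 15.4 and 18.9 before heat and at 2.81 and 3.63 at 1 h.

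Among the 50 strongest regions, RNAPII was missing only at 1 h in 12 (24.0%), H3K4me3 in 5 (10.0%), H3K18ac in 3 (6.0%) and H3K27ac in 0, against 0.877%, 0.85%, 1.81% and 0.0866% of all H3K9ac regions. Among the 200 strongest it was 23 (11.5%) for RNAPII. RNAPII was present in both libraries at 96.0% of the 50 strongest at 0 h and 62.0% at 1 h. For the 200 strongest these shares were 86.0% and 64.0%. Over all 4316 regions these shares were 57.9% and 56.3%. These sets are ranked by the H3K9ac values that chose the regions, and this difference was not tested.

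The 4 longest regions were chr3:3609106-3614834 (5729 bp), chr2:53522149-53527500, chr9:60320280-60325583 and chr4:60136415-60141474. In the longest, H3K9ac had folds of 4.58 and 3.76 at 0 h and 2.73 and 3.21 at 6 h, H3K4me3 had no peak at any time, and RNAPII had 10.6 and 12.3, 5.88 and 4.49, and 9.27 and 8.18. At chr2:53522149-53527500, also without H3K4me3, RNAPII had 7.69 and 8.66, 3.70 and 2.95, and 6.18 and 7.64. RNAPII was thus lowest at 1 h in both of these regions. The other 2 carried H3K4me3 in all 6 libraries and did not share this order. RNAPII had 5.05 and 5.01, 4.15 and 3.19, then 3.75 and 4.33 at chr9:60320280-60325583, and 9.94 and 9.13, 6.37 and 7.15, then 5.82 and 6.00 at chr4:60136415-60141474.

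No region lost more than 2 of the other targets at 1 h alone, and the strongest with 2 was chr12:48444497-48448212. H3K9ac had folds of 6.57 and 5.69 at 0 h and 8.07 and 6.01 at 6 h. RNAPII had 4.15 and 3.82 at 0 h, no peak at 1 h, and 9.26 and 8.78 at 6 h, and H3K4me3 had 2.92 and 2.54, no peak at 1 h, and 2.67 and 3.38. H3K18ac stayed with lower folds of 2.93 and 3.72 at 1 h, against 5.39 and 7.80 at 0 h and 8.25 and 8.90 at 6 h. H3K18ac and RNAPII were missing together at 1 h at chr11:7390231-7390849, chr10:41893286-41894310 and chr6:2165481-2166433, and H3K4me3 and RNAPII at chr1:60816910-60817738. H3K27ac was present at each time in all 5 of these regions.

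Some regions without H3K9ac at 1 h had a strong peak of another target then. RNAPII was highest at chr9:4819710-4820586, with folds of 9.47 and 10.1 at 0 h and 25.8 and 27.1 at 1 h, and with 11.9 and no summit at 6 h. At chr2:52706866-52707499 a summit of RNAPII lay in the region only at 1 h, with folds of 25.5 and 23.9, although RNAPII peaks overlapped it at all times. At chr8:205801-207461 RNAPII had 14.7 and 15.7, 23.55 and 22.65, and 13.5 and 13.7. Their H3K9ac folds at 0 h were 3.11 and 3.32, 2.49 and 3.08, and 2.78 and 2.44, in that order of regions.

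For H3K4me3 at 1 h the highest were chr11:58728067-58728518, with folds of 16.6 and 16.9, chr4:1737046-1737920, with 15.3 and 16.8, and chr6:39442740-39443456, with 18.5 and 14.0. For H3K18ac they were chr7:67184595-67186883 (7.79 and 8.02), chr4:61960102-61960531 (8.27 and 7.41) and chr11:59212015-59213297 (7.03 and 7.70). For H3K27ac they were chr12:3296212-3296857 (9.84 and 8.68), chr6:42784508-42785401 (8.64 and 8.89) and chr6:44745293-44747892 (8.61 and 8.61). The H3K9ac strength of these 9 regions was between 1.88 and 3.10, from below the median of 2.00 to above the 95th percentile of 3.00.

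The region at the median strength, chr9:4893570-4894517, was 948 bp long, with H3K9ac folds of 2.15 and 3.67 at 0 h and 2.17 and 2.00 at 6 h. It had no H3K4me3 at any time, and H3K27ac had folds of 3.46 and 4.04, 3.77 and 3.78, and 3.59 and 3.67. H3K27ac was thus level there over the 3 times. RNAPII had a peak in both libraries at 0 h and 6 h and in 1 at 1 h.

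The regions were spread over all chromosomes, from 4.44% of the H3K9ac regions of chr1 to 5.76% of those of chr2. At least 1 lay in 635 of 807 bins of 1 Mb. The fullest, on chr2, were 41 to 42 Mb with 34, 37 to 38 Mb with 31 and 35 to 36 Mb with 29. These bins were dense in H3K9ac regions, with 395, 401 and 330. The counts were 8.61%, 7.73% and 8.79% of them, against 5.05% over all chromosomes. Bins poor in H3K4me3 (403 of 807) held 11.0% of the regions missing only at 1 h, 5.96% of kept regions, 4.73% of 0 h-only regions and 8.08% of all H3K9ac regions. No gene was assigned to any region, as no annotation of this assembly was used here.

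Of the 4316 regions, 3584 had no neighbour of the same kind next to them in the order of all H3K9ac regions, and 732 (17.0%) did. Only 5.05% of all H3K9ac regions met the rule, and no comparison with a random order was made. The longest run was 5 regions at chr12:48443546-48454470, with strengths of 1.64 to 5.69, and it held the region on chr12 named above. The median distance to the nearest H3K9ac peak at 1 h was 1898 bp, with 33.9% within 1000 bp and 16.8% over 10000 bp. For 0 h-only regions the median was 1173 bp, with 45.6% within 1000 bp and 6.23% over 10000 bp.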

How the data were processed

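ChIP-seq of 5 targets gave 30 peak lists from the 32 samples; H3K27me1 and input were not analysed here. According to the submitters' processing notes, reads were treated with Trimmomatic 0.38, Bowtie2 2.3.5, SAMtools 1.9 and MACS2 2.2.7.1, and the authors mapped them to M82 version 1.0. Peaks were called in each library against 1 input. The deposited lists hold a fold (ratio of pileup to background) and −log10 p-values and q-values. The methods name broad peaks at a q of 0.05, the reporting summary a p of 0.05, which the lists reach. The lowest background gives a relative depth. Whole fragments were recovered from fold and p for at least 99.3% of peaks in every library, within 0.001 of the deposited −log10 p.

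Overlap was 1 bp. Shares were compared by exact permutation tests in Python 3.11.15 with numpy 2.4.6, pandas 2.3.3 and scipy 1.17.1. Region calls, covered length, fold and the recovery of fragments were tested on simulated data. For the replicate check, peaks were matched where summits lay within 30 bp. The members and lists were chosen with earlier results of these data known. Regions named were the 8 strongest, the 4 longest, the 3 with the highest lower fold at 1 h per other target, up to 5 with the most targets missing only at 1 h, the median region, the longest run and the 3 fullest bins of 1 Mb. Alternatives were a q limit, equal numbers of peaks, 50% coverage, 300 to 600 bp, each replicate left out, libraries taken singly and a replicate block. Peaks off chr1 to chr12 (0.0444%) were left out.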

Additional observations from a re-analysis of the deposited data

Results flagged for a closer look

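From 0 h to 1 h the share of the 4316 regions with a peak moved in opposite directions by target, with no overlap between the libraries of the 2 times for H3K27ac, H3K4me3, H3K18ac and RNAPII. The mean difference was +11.3 percentage points for H3K27ac, -5.72 for H3K4me3, -3.15 for H3K18ac and -0.405 for RNAPII. Over all H3K9ac regions the same differences were +11.4, -1.04, +1.20 and +9.50, so the H3K27ac value is that of the background. The RNAPII difference is within the counting error of a share (up to 1.49 points). The difference between targets was not tested.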

How the results depend on the processing

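H3K4me3 and H3K18ac departures at 1 h were negative and the H3K18ac change from 0 h to 6 h was positive under every alternative. Values are in percentage points, in the order H3K4me3, H3K18ac, H3K27ac and RNAPII where 4 are given, and the cause of a change was not tested unless stated. With q of at most 0.05, 3670 regions met the rule, the H3K27ac and RNAPII departures were 2.96 and -0.916, and the changes for H3K4me3, H3K27ac and RNAPII were -1.54, -0.300 (reversed) and 2.74. With equal numbers of peaks, 1977 regions met the rule, the departures were -5.72, -6.68, 0.584 and -4.43, and the changes -1.72, 11.3, -1.66 (reversed) and 3.22. With 50% of a region covered, 3452 met it, the departures were -6.13, -22.8, -0.608 (reversed) and -22.4, and the changes -2.99, 11.3, 11.4 and 0.733. Between 300 and 600 bp there were 886 regions, with departures of -10.1, -20.0, -5.26 (reversed) and -8.79 and changes of 3.65 for H3K27ac and 1.81 for RNAPII.

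Without replicate 1 or without replicate 2 the rule asked for fewer libraries and took 10280 or 11174 regions. The departures then ranged from -5.18 to -4.09, from -3.83 to -3.07, from 2.62 to 3.63 and, reversed, from 2.2 to 2.62, and the changes from -1.11 to -0.724, from 6.77 to 7.55, from 1.69 to 4.17 and from 0.592 to 0.665. With kept regions of like strength, added after seeing the data, the departures were -10.2, -9.00, -6.60 (reversed) and -7.64 and their joint p was 0.0370 by the exact permutation test, against 0.580 with all kept regions. Those kept regions were matched at 0 h and 6 h only and have H3K9ac peaks at 1 h by definition.

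Taking the libraries as labelled, the exact permutation tests gave p = 0.0486 for the departures and 0.0895 for the changes, but the 2 libraries of a time differed by no more than sampling noise. With a replicate block the exact permutation tests gave p = 0.0718 and 0.125. The difference between replicates 1 and 2 correlated between times from 0.26 to 0.41 for H3K4me3, whose replicate 2 was the deeper at each time. The correlation was from 0.095 to 0.16 for H3K27ac, and from -0.017 to 0.054 for H3K9ac, H3K18ac and RNAPII. For H3K4me3, a pairing of libraries across times by replicate number cannot be told apart from this steady difference in depth. Shares of these regions are known to within 1.49 points by counting error alone.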
